A study of Homo sapiens with 33 samples.

Results

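H3K4me3, the trimethylation of lysine 4 on histone H3, was compared between EZH2-/- and EZH2+/+ human embryonic stem cells (ESCs) at annotated gene starts. The comparison used 4 of the 33 samples of the series, the H3K4me3 ChIP and the matching input of each genotype, and all 149487 start-site windows on chromosomes 1 to 22 of 153958 windows in all. Each window spanned 5 kb centred on a start site. Values are RPM, read counts scaled to a common library size, and a difference is the EZH2-/- value minus the EZH2+/+ value on log2(RPM + 0.1). The windows carried 34447 gene names, each represented by its window with the highest mean H3K4me3. Of these, 18507 had a mean of at least 4 RPM over both columns and were kept.

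All cells were H9 ESCs, a human line, grown on mouse embryonic feeders. The EZH2+/+ cells were the parental line, and the EZH2-/+ cells carried a CRISPR/Cas9 disruption of 1 allele. The EZH2-/- cells came from an EZH2-/+ line that first received a doxycycline (DOX)-inducible EZH2 transgene, had the remaining allele disrupted in the presence of DOX, and were then kept without DOX. The EZH2-/-+EZH2 cells had this transgene switched on by DOX. The edited lines were clonal, so a difference from EZH2+/+ also includes what clones differ in. Chromatin for H3K4me3 came from cells sorted for SSEA4, and was native and digested with micrococcal nuclease. RNA also came from cells sorted for SSEA4, with 3 libraries per genotype.

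H3K4me3 marks the starts of genes that are transcribed or held ready for transcription, and most CpG-rich promoters carry it. Methyltransferases of the SET1 and MLL families place it, and demethylases of the KDM5 family remove it. In ESCs many developmental regulators carry H3K4me3 together with H3K27me3, the Polycomb mark written by EZH2, an arrangement known as bivalency.

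Each genotype had 1 H3K4me3 column, for which the labels name 2 libraries, so no ChIP difference has a replicate check or a p-value. A window was called higher or lower at a difference of at least 1. Depth was 3.43 M reads in EZH2+/+ against 10.3 M in EZH2-/-. At 4 RPM an EZH2+/+ library held 13.7 reads, and counting error alone, for 2 libraries per column, gave the difference a 95% half-width of 0.62. This half-width was 0.44 at 8 RPM and 0.31 at 16 RPM, and covers counting error only.

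The EZH2+/+ column also had the narrowest range of levels. Its 5th and 95th percentiles over all gene names were 1.33 and 16.7 RPM, against 0.581 and 18.8 RPM in EZH2-/-, 0.488 and 24.2 RPM in EZH2-/+, and for EZH2-/-+EZH2 they were 0.598 and 17.4 RPM. The difference from EZH2+/+ therefore changed with level, from a median of -1.14 at 0.5 to 1 RPM to 0.17 at 16 to 32 RPM. Against EZH2-/-+EZH2 the medians ran only from -0.04 to 0.13. The difference from EZH2-/+ changed with level as well, from a median of 0.20 at 0.5 to 1 RPM to -0.36 at 8 to 16 RPM. For this reason the levels of all 4 genotypes are given for the genes described below, in the order EZH2+/+, EZH2-/+, EZH2-/- and EZH2-/-+EZH2 unless stated otherwise. The other genotypes share the EZH2-/- column in these comparisons and are not independent evidence.

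ESC marker transcripts were abundant in both genotypes. The 11 ESC marker transcripts summed to 2520 to 3130 RPM in EZH2+/+ and 3740 to 4230 RPM in EZH2-/-. The 5 early endoderm markers summed to 19.4 to 32.6 RPM and 76.7 to 156 RPM, the 8 fibroblast markers (feeders or differentiated mesenchyme) to 301 to 375 RPM and 293 to 550 RPM, and the 5 trophoblast and amnion markers to 9.07 to 10.6 RPM and 13.5 to 16.3 RPM. RNA rose at 6 of 11 ESC, 3 of 5 endoderm, 3 of 7 tested fibroblast and 2 of 5 trophoblast markers, and fell at SOX2 and 1 fibroblast marker. Over all genes tested, RNA of 12.6% rose and of 18.8% fell. The fibroblast marker that fell was COL1A2, with a mean of 182 RPM in EZH2+/+ and 89.5 RPM in EZH2-/- (1.07 lower, adjusted p = 0.0044, limma). COL1A1, another collagen of the list, averaged 88.3 and 65.2 RPM and did not pass (adjusted p = 0.45, limma). The fibroblast collagen COL3A1 averaged 2.1 RPM in EZH2+/+ and 53.8 RPM in EZH2-/- (4.46 higher, adjusted p = 0.013, limma), and LUM, a matrix proteoglycan, 0.236 and 3.26 RPM (3.02 higher, adjusted p = 0.015, limma), while DCN, another one, averaged 0.0169 and 0.086 RPM and was not tested. Both calls were lost without EZH2+/+ library 3 (adjusted p = 0.055 and 0.063) and without EZH2-/- library 2 (0.065 and 0.073), and that of LUM without EZH2-/- library 3 (0.056). The part of such cells in the results below was not tested. EZH2 RNA was 59.5, 63.3 and 68.6 RPM in EZH2+/+ and 8.65, 9.68 and 11.5 RPM in EZH2-/-, and its promoter H3K4me3 was 13.2 RPM and 12.9 RPM. In such bulk samples, fewer cells of a type and less RNA or mark per cell cannot be told apart.

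Over the kept gene names H3K4me3 was little different between the genotypes. The median difference was 0.15, 5% to 95% of gene names lay between -0.57 and 0.87, and 75.4% lay within 0.5 of zero. The input differed by a median of 0.01, with the same percentiles at -0.43 and 0.44. H3K4me3 was at least 1 higher at 557 gene names (3.01%) and at least 1 lower at 209 (1.13%). After centring on the median of all windows kept, 0.17, these counts were 311 and 370. By the same rule the input was higher at 3 gene names (0.0162%) and lower at 4 (0.0216%). The windows nearest the threshold were those of GATSL2 (1.0, inside) and TADA2B (0.9999, outside) among the higher, and PDIA2 (-1.001, inside) and HES2 (-0.9995, outside) among the lower.

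The number of calls depended on the reference genotype. EZH2-/- was higher than EZH2-/+ at 85 gene names (0.459%) and lower at 574 (3.10%), and it was higher than EZH2-/-+EZH2 at 12 (0.0648%) and lower at 50 (0.270%). EZH2-/+ itself was higher than EZH2+/+ at 1632 gene names (8.82%) and lower at 54 (0.292%), and EZH2-/-+EZH2 was higher at 384 (2.07%) and lower at 78 (0.421%). Of the 557 higher gene names, 531 had their lowest level of the 4 genotypes in EZH2+/+, as did 9681 of all 18507 kept gene names, and 162 had their highest in EZH2-/-, as did 792 of all. Of the 209 lower gene names, 179 had their lowest level in EZH2-/-, as did 3650 of all. These counts describe sets that were chosen on the EZH2+/+ and EZH2-/- values. The median levels of the higher gene names were 3.75, 11.2, 9.85 and 8.73 RPM, in the order EZH2+/+, EZH2-/+, EZH2-/-, EZH2-/-+EZH2. Those of the lower gene names were 9.33, 8.61, 3.56 and 5.65 RPM in the same order. At least 1 below EZH2-/+ were 117 of the 209, and at least 1 below EZH2-/-+EZH2 were 34. At least 1 above EZH2-/+ were 62 of the 557, and at least 1 above EZH2-/-+EZH2 were 7. None of the 557 was at least 1 below either of them.

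The neural and sensory regulators had the lowest median of the gene lists with at least 5 kept members. All 43 kept members carried H3K27me3 in EZH2+/+, their median H3K4me3 difference was -0.47 beside 0.15 over all kept gene names, and EZH2-/- had the lowest level of the 4 genotypes at 36 of them. Medians were -0.98 against EZH2-/+ and -0.53 against EZH2-/-+EZH2, beside -0.35 and 0.09 over all kept gene names. The median input difference of the list was 0.09. None was at least 1 higher and 8 were at least 1 lower, among them PAX3, LHX5, EN1, NEUROD1, SOX1, NEUROG1 and EN2.

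PAX3, a paired-box factor of the neural crest and dorsal neural tube, had 20.5 RPM of H3K4me3 in EZH2+/+ and 16.3 RPM in EZH2-/+, but 6.85 RPM in EZH2-/-, and EZH2-/-+EZH2 stood at 13.7 RPM. Its H3K27me3 was 42.0 RPM in EZH2+/+ and 3.29 in EZH2-/-, so both marks were lower in EZH2-/-. PAX3 RNA was 5.24, 7.58 and 2.23 RPM in the EZH2+/+ libraries and 0.633, 0.807 and 0.534 RPM in the EZH2-/- libraries. The groups did not overlap, and RNA fell by 2.61 on the log2 scale (SE 0.47, adjusted p = 0.0016, limma). EZH2-/+ cells, with 16.3 RPM of H3K4me3, averaged 0.687 RPM of PAX3 RNA, beside 0.658 RPM in EZH2-/- cells.

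SOX1, a marker of early neural progenitors, had 13.4, 13.9, 5.27 and 9.81 RPM of H3K4me3 in EZH2+/+, EZH2-/+, EZH2-/- and EZH2-/-+EZH2. SOX1 RNA was 9.41, 9.33 and 3.5 RPM in EZH2+/+ and 0, 0.0188 and 0.0297 RPM in EZH2-/-, a fall of 5.89 (SE 0.49, adjusted p = 1.2e-05, limma). EZH2-/+ averaged only 0.606 RPM of SOX1 RNA, although its H3K4me3 was as high as in EZH2+/+. LHX5, a LIM homeobox factor of the forebrain, had 18.3, 17.4, 6.78 and 12.9 RPM of H3K4me3. Its RNA spanned 1.93 to 10.5 RPM in EZH2+/+ and 0.0375 to 0.0704 RPM in EZH2-/- (difference -4.56, SE 0.89, adjusted p = 0.0024, limma).

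NEUROD1, NEUROG1, EN1 and EN2 had little RNA in both genotypes. NEUROD1 and NEUROG1, basic helix-loop-helix factors of neuron formation, had 14.7, 14.5, 6.53 and 11.1 RPM, and 12, 12, 4.34 and 9.17 RPM, of H3K4me3 respectively. At NEUROG1 the input was also 0.69 lower in EZH2-/-. EN1 and EN2, homeobox factors of the midbrain and hindbrain, had 16.6, 18.6, 7.46 and 14.4 RPM, and 11, 8.44, 4.46 and 6.79 RPM. Of these, only EN1 had enough RNA to be tested (difference -0.72, SE 0.64, adjusted p = 0.42, limma). Across the list, RNA of 2 members rose (7.14%) and of 10 fell (35.7%) among 28 tested. Over the 16026 kept gene names with RNA tested, 10.5% rose and 20.8% fell.

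Promoter sequences are shown for a pair of these neural regulators and for loci described below, because the sets differed in CpG content. These loci are GALNT3, with the largest fall among loci with RNA tested, and 3 of those with the largest rises. Each runs 5' to 3' on the strand of the gene, from 250 bases before to 50 bases after the RefSeq start (GRCh38.p14), with every CG dinucleotide in capitals. CG reads the same on both strands. PAX3 (minus strand, chr2:222298949-222299248) holds 21 CG, SOX1 (plus, chr13:112066899-112067198) 37, GALNT3 (minus, chr2:165794198-165794497) 28, GNA14 (minus, chr9:77648273-77648572) 15, RAB17 (minus, chr2:237590685-237590984) 7 and LOXHD1 (minus, chr18:46657171-46657470) 5.
PAX3: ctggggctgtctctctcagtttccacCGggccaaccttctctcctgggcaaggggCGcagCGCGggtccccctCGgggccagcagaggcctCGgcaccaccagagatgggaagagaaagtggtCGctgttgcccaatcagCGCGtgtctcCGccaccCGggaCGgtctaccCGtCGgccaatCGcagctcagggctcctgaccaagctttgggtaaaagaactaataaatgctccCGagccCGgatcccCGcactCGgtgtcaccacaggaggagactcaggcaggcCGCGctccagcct
SOX1: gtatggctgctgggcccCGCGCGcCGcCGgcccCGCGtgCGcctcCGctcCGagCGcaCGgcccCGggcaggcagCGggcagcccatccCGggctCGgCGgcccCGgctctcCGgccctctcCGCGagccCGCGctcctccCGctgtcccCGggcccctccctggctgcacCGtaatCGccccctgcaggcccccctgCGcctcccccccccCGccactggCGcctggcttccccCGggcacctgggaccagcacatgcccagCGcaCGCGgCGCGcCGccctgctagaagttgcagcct
GALNT3: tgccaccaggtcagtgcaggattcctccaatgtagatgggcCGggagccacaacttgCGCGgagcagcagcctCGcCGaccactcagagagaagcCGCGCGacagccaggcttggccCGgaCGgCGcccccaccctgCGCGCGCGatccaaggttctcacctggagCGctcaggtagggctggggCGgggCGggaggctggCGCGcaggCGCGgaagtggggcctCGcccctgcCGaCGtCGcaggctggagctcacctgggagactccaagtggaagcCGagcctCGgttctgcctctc
GNA14: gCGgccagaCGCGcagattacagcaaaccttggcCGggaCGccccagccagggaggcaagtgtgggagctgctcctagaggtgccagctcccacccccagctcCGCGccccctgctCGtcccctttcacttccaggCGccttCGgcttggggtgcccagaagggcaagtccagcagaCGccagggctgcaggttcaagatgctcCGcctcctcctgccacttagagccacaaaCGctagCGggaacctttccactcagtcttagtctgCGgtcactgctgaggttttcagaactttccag
RAB17: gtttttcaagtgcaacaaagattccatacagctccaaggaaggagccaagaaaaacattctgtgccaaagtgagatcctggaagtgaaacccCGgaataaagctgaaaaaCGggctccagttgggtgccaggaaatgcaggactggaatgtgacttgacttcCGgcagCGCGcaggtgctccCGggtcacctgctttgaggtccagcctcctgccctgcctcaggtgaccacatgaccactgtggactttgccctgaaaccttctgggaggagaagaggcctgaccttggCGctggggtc
LOXHD1: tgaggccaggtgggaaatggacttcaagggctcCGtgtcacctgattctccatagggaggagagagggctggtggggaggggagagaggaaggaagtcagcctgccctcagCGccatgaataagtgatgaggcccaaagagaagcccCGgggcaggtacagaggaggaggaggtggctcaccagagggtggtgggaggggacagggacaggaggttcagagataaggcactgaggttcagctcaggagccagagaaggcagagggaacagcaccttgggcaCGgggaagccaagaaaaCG
The ratio of observed to expected CG is 0.67 for PAX3, 0.82 for SOX1, 0.76 for GALNT3, 0.51 for GNA14, 0.31 for RAB17 and 0.21 for LOXHD1. A ratio of at least 0.6 was found in 48.9% of 33558 RefSeq promoters and in 87.7% of the 10358 promoters matched to kept gene names.

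HOX genes, the homeobox factors of the body axis, had a median H3K4me3 difference of -0.28 over 38 kept members, beside 0.15 over all kept gene names. The median was -0.29 against EZH2-/-+EZH2, beside 0.09, but -0.40 against EZH2-/+, close to the -0.35 of all kept gene names. Only HOXA2 and HOXD3 were at least 1 lower and none was at least 1 higher. HOXA2 had 15.6, 8.81, 6.54 and 10.2 RPM in EZH2+/+, EZH2-/+, EZH2-/- and EZH2-/-+EZH2, and its RNA fell by 3.42 (SE 0.62, adjusted p = 0.0016, limma). HOXA2 RNA averaged 2.78, 0.0866, 0.18 and 0.0343 RPM in the same order. HOXD3 had 9.71, 8.02, 4.04 and 7.88 RPM in its chosen window. The window listed first for HOXD3 had a difference of 1.08 in the opposite direction, so its value depended on the start site. HOX RNA moved mostly upward, with 11 of 21 tested members higher (52.4%) and 2 lower (9.52%), beside 10.5% and 20.8% of all kept gene names. 

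Mesoderm and endoderm regulators had H3K4me3 close to the EZH2+/+ level, while RNA of more than 50% of the members tested rose. The 35 mesoderm, limb and heart regulators had a median difference of -0.07, with 1 member, MSX1, at least 1 lower. RNA of 19 of 32 tested members rose (59.4%) and of 1 fell, beside 10.5% and 20.8% of all kept gene names. The 23 endoderm and primitive streak regulators had a median of -0.02, with 1 member, MIXL1, at least 1 higher. RNA of 13 of 23 rose (56.5%) and of none fell by limma, beside the same 10.5% and 20.8%. Against EZH2-/+ the H3K4me3 medians of these lists were -0.61 and -0.73, beside -0.35 over all kept gene names, and against EZH2-/-+EZH2 they were -0.17 and -0.21, beside 0.09. EZH2-/- was the lowest genotype at 19 of 35 and 11 of 23. The H3K27me3 medians of both lists were similarly low in EZH2-/-, at -4.08 and -3.88, beside -3.74 for the neural list and -1.36 over all kept gene names.

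SOX17, an endoderm regulator, had 8.79, 13.2, 6.57 and 8.84 RPM of H3K4me3 in EZH2+/+, EZH2-/+, EZH2-/- and EZH2-/-+EZH2. GATA4, a factor of endoderm and heart, had 13.5, 20.0, 11.6 and 15.0 RPM. T, the primitive streak factor, had 13.2, 30.0, 18 and 20.8 RPM, and TBX3, a T-box factor, had 13.4, 15.7, 19.6 and 13.7 RPM. RNA of SOX17, GATA4, T and TBX3 was 1.99, 2.93, 2.58 and 3.38 higher (adjusted p = 0.018, 0.015, 0.021 and 0.00044, limma). Without EZH2-/- library 2 the adjusted p was 0.076 for SOX17, 0.07 for GATA4 and 0.071 for T. Without EZH2+/+ library 3 it was 0.063, 0.054 and 0.077, without EZH2+/+ library 2 it was 0.053 for SOX17 and 0.052 for T, and without EZH2-/- library 3 it was 0.062 for T. The H3K4me3 differences of these 4 genes ran from -0.41 at SOX17 to 0.55 at TBX3, and none reached 1.

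MSX1, a homeobox factor of limb and neural crest, had 19.4, 15.2, 9.61 and 13.6 RPM of H3K4me3, and its RNA differed by 0.07 (SE 0.53, adjusted p = 0.93, limma). MIXL1, a primitive streak homeobox factor, had 5.22, 13.1, 10.7 and 9.2 RPM, so its difference of 1.02 from EZH2+/+ became -0.30 against EZH2-/+. MIXL1 RNA was 7.01, 14 and 20.6 RPM in EZH2+/+ and 60.9, 65.9 and 86.0 RPM in EZH2-/- (difference 2.46, SE 0.91, adjusted p = 0.056, limma). Blocking on library number gave an adjusted p of 0.0092 (limma). MESP1, a factor of early heart mesoderm, had 8.05, 14.4, 7.85 and 10.4 RPM, and its RNA difference of 1.15 did not pass (SE 0.5, adjusted p = 0.1, limma).

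Neuronal genes, which encode receptors, adhesion molecules and other proteins of mature neurons, had a median of 0.04 over 27 kept members, but included some of the deepest single losses. KHDRBS2, an RNA-binding splicing regulator, had 9.8, 13.3, 0.987 and 2.67 RPM of H3K4me3 in EZH2+/+, EZH2-/+, EZH2-/- and EZH2-/-+EZH2. Its RNA was 1.84, 3.26 and 4.34 RPM in EZH2+/+ and listed at 0 in all EZH2-/- libraries. Its input was also 0.70 lower in EZH2-/-. NETO1, an auxiliary subunit of glutamate receptors, had 10.5, 24.8, 3.77 and 8.04 RPM, with an input difference of -0.60. NPTX1, a neuronal pentraxin, had 15.3, 20.5, 7.56 and 13.7 RPM, and its RNA fell by 4.90 (SE 0.62, adjusted p = 0.00018, limma). RNA of 2 members rose (8.7%) and of 7 fell (30.4%) among 23 tested, beside 10.5% and 20.8% of all kept gene names.

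Among loci with RNA tested and an input difference under 0.5, the largest fall was at GALNT3, which encodes an enzyme that starts mucin-type O-glycosylation. GALNT3 (ENSG00000115339, window chr2:165792182-165797182) had 14.1, 6.95, 1.42 and 1.85 RPM of H3K4me3, a difference of -3.22 with a counting half-width of 0.60. Its RNA was 2.97, 5.15 and 4.3 RPM in EZH2+/+ and 0.088, 0 and 0 RPM in EZH2-/-, a fall of 5.07 (SE 0.37, adjusted p = 6.2e-06, limma). With the transgene on, EZH2-/-+EZH2 cells stayed low in both, with 1.85 RPM of H3K4me3 and a mean of 0.00857 RPM of RNA.

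GABRA2, a subunit of the GABA-A receptor, had 9.33, 14.3, 1.02 and 3.33 RPM of H3K4me3 in EZH2+/+, EZH2-/+, EZH2-/- and EZH2-/-+EZH2. GRIK1, a kainate-type glutamate receptor subunit, had 10.2, 18.6, 1.46 and 3.66 RPM. NCAM2, a neural cell adhesion molecule, had 9.43, 14.3, 1.5 and 3.33 RPM. At these 3 genes H3K27me3 was also lower (differences -3.01, -2.0 and -1.54), as were H3K27ac (-1.13, -1.90 and -2.16) and H3K4me1 (-2.18, -2.89 and -2.58). RNA fell at each of them, by 2.38, 2.91 and 2.80 (adjusted p = 0.0036, 0.00033 and 0.00017, limma). NCAM2 lay at the end of a stretch of chromosome 21 where the summed input was also lower in EZH2-/- (192.4 RPM against 234.1 RPM).

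The other 6 loci with large falls were RP11-6N17.10, NR5A1, TULP1, PPAPDC3, CSMD1 and RP11-401P9.4, with differences of -1.92 to -1.72. NR5A1, a nuclear receptor of the gonad and adrenal gland, had 7.12, 5.14, 1.84 and 4.49 RPM, and TULP1, a photoreceptor protein, had 6.59, 4.36, 1.81 and 3.22 RPM. RNA fell at TULP1 by 2.18 (adjusted p = 0.0025, limma) and at PPAPDC3 by 2.38 (adjusted p = 0.00057, limma). At RP11-6N17.10, a long non-coding RNA, it fell by 1.03 (adjusted p = 0.042, limma), but the adjusted p lay between 0.1 and 0.15 without EZH2+/+ library 2 or 3 or EZH2-/- library 1 or 2. RNA did not pass at NR5A1 (0.85, adjusted p = 0.25, limma), CSMD1 (0.55, adjusted p = 0.55, limma) or RP11-401P9.4 (-0.48, adjusted p = 0.33, limma). PPAPDC3 had 6.78, 3.77, 1.95 and 3.32 RPM, RP11-6N17.10 had 9.07, 4.57, 2.32 and 3.6 RPM, and RP11-401P9.4 had 6.29, 3.29, 1.84 and 2.7 RPM of H3K4me3. CSMD1, a large membrane protein, had 10.6, 20.7, 3.1 and 5.25 RPM and was lower in H3K27ac as well as H3K4me3 (differences -1.19 and -1.74), and its H3K27me3 went from 28.0 RPM to 2.33 RPM.

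Of all 209 lower gene names, 142 (67.9%) carried H3K27me3 in EZH2+/+, defined as more than 0.1 log2 RPKM with input below this value, compared with 28.6% of kept gene names. H3K27ac at the lower gene names had a median difference of 0.14, beside 0.54 over all kept gene names. It was at least 1 lower at 17 of them, out of only 41 such kept gene names. RNA was called lower at 52 of 108 tested (48.1%) and higher at 6, beside 20.8% and 10.5% of all kept gene names. The median RNA difference was -1.01 beside -0.16. Over all 209, without a filter on low RNA, 46 were lower and the median was -0.13, and an RNA pseudocount of 1 RPM gave a median of -0.54 over those tested. Among the 142 with H3K27me3, RNA was lower at 29 and higher at 5 of 68 tested, and among the other 67 it was lower at 23 and higher at 1 of 40. 

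Among loci limited in the same way, the largest rise was at GNA14, which encodes an alpha subunit of the Gq class of G proteins. GNA14 (ENSG00000156049, window chr9:77645807-77650807) had 1.33, 0.934, 12 and 3.83 RPM of H3K4me3 in EZH2+/+, EZH2-/+, EZH2-/- and EZH2-/-+EZH2, a difference of 3.09 with a counting half-width of 0.95. Its RNA was 0.133, 0.0761 and 0 RPM in EZH2+/+ and 10.9, 10.4 and 9.38 RPM in EZH2-/-, a rise of 6.01 (SE 0.53, adjusted p = 2e-05, limma). H3K27ac was 1.06 higher and H3K4me1 1.47 higher. GNA14 was not among the promoters with H3K27me3, which went from 1.68 RPM in EZH2+/+ to 1.06 RPM in EZH2-/-. The EZH2-/-+EZH2 cells were intermediate in both H3K4me3 and RNA, with a mean of 1.78 RPM of RNA.

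LOXHD1, a protein of inner-ear hair cells, had 1.79, 0.996, 8.74 and 4.33 RPM of H3K4me3. RAB17, a small GTPase of epithelial trafficking, had 2.27, 2.62, 10.7 and 4.47 RPM, and its window overlapped that of AC104667.3, a long non-coding RNA gene on the other strand. ZSCAN2, a zinc finger factor, had 4.02, 11.4, 24.1 and 14.5 RPM. RNA rose at LOXHD1 by 4.26, at RAB17 by 3.61 and at ZSCAN2 by 1.87 (adjusted p = 1.2e-05, 0.0001 and 0.00018, limma). RAB17 RNA, for example, was 1.82, 3.04 and 3.39 RPM in EZH2+/+ and 23.5, 40.2 and 40.0 RPM in EZH2-/-. The first-listed window of ZSCAN2 had a difference of 0.88, under the threshold.

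The other 6 loci with large rises were non-coding or unclassified transcripts. RP11-360K13.1, a long non-coding RNA, had 4.88, 8.9, 29.3 and 22.5 RPM of H3K4me3, and RP11-442O1.4 had 1.89, 1.57, 8.63 and 8.24 RPM. Both stayed high in EZH2-/-+EZH2. A long non-coding RNA gene on chromosome 14 (ENSG00000258657) had 2.14, 5.16, 10.2 and 8.13 RPM. RP11-181K12.1, RP11-680F20.10 and AP001065.15 had differences of 2.5, 2.40 and 2.18. Their levels were 2.46, 5.71, 14.4 and 10.2 RPM, 1.89, 2.29, 10.4 and 5.08 RPM, and 2.69, 4.87, 12.6 and 9.49 RPM. RNA rose at all 6, by 1.20 at RP11-181K12.1 to 3.06 at RP11-680F20.10 (adjusted p = 0.017 and 9.1e-05, limma). For RP11-181K12.1 the adjusted p was 0.069, 0.061 and 0.068 without EZH2+/+ library 1, EZH2+/+ library 2 and EZH2-/- library 3. For RP11-442O1.4 (adjusted p = 0.025, limma) it was 0.099 and 0.098 without EZH2+/+ library 3 and EZH2-/- library 3. None of the 10 loci with the largest rises was an H3K27me3 promoter in EZH2+/+, compared with 6 of the 10 with the largest falls. These loci were limited to those with RNA tested and an input difference under 0.5. Without this limit, 12 of the 13 gene names at least 2 lower were H3K27me3 promoters, and none of the 16 at least 2 higher. The shares were 18.5% of all higher, 67.9% of all lower and 28.6% of all kept gene names.

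The higher gene names were split by a cut at 1 on their difference from EZH2-/+. Only 62 of the 557 were also at least 1 above EZH2-/+, with median levels of 2.49, 2.83, 8.42 and 6.43 RPM in EZH2+/+, EZH2-/+, EZH2-/- and EZH2-/-+EZH2. RNA rose at 36 of 50 tested (72.0%) and fell at 1 (2.0%), with a median of 2.03, beside 10.5% and 20.8% of all kept gene names. Gene names under 4 RPM of H3K4me3 in EZH2+/+ were kept only through their EZH2-/- level. Those with RNA under 0.1 RPM in EZH2+/+ were tested only if other genotypes raised the mean to this value. Such filters can raise the share with higher RNA, and by how much was not tested. The other 495 had medians of 4.13, 11.8, 10.1 and 8.98 RPM, with EZH2+/+ the lowest, an order that follows in part from the cut. RNA rose at 89 of 426 tested (20.9%) and fell at 59 (13.8%), with a median of 0.03. None of the 62, and 103 of the 495 (20.8%), carried H3K27me3 in EZH2+/+, beside 28.6% of all kept gene names. Where a promoter was matched, 38.9% of 18 in the first set and 83.4% of 241 in the second had a CG ratio of at least 0.6. The lower gene names stood at 63.5% of 85, with 71.0% of 62 where H3K27me3 was present in EZH2+/+ and 43.5% of 23 where it was not.

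General pluripotency factors had a median H3K4me3 difference of 0.46 over 25 kept members, but EZH2+/+ was the lowest genotype at all 25, as it was at 9681 of all 18507 kept gene names. The median was -0.25 against EZH2-/+ and 0.09 against EZH2-/-+EZH2. POU5F1, the core pluripotency factor, had 24.3, 40.4, 33.5 and 29.3 RPM of H3K4me3 in EZH2+/+, EZH2-/+, EZH2-/- and EZH2-/-+EZH2, and its RNA rose by 0.92 (SE 0.16, adjusted p = 0.001, limma). LEFTY1, LEFTY2 and FGF2 were at least 1 higher than EZH2+/+. LEFTY1 and LEFTY2, secreted Nodal inhibitors, had 5.48, 18.9, 14.6 and 15.0 RPM, and 6.29, 7.47, 14 and 9.78 RPM. Their RNA rose by 4.77 and 5.29 (adjusted p = 0.012 and 0.00098, limma), and the call of LEFTY1 was lost without a filter on low RNA (adjusted p = 0.066). FGF2, a growth factor of ESC self-renewal, had 7.62, 17.5, 16.6 and 14.8 RPM, and its RNA rose by 0.80 (adjusted p = 0.0049, limma). Against EZH2-/+, LEFTY1 and FGF2 differed by -0.37 and -0.07. RNA of 15 of 25 factors rose (60%) and of 3 fell (12%), beside 10.5% and 20.8% of all kept gene names.

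CDKN2A and CDKN2B, neighbouring genes of cell-cycle inhibitors, had H3K27me3 of 21.8 and 22.1 RPM in EZH2+/+ and 0.331 and 0.501 RPM in EZH2-/-. CDKN2A H3K4me3 was 13.0, 24.5, 19.1 and 18.2 RPM in EZH2+/+, EZH2-/+, EZH2-/- and EZH2-/-+EZH2, and CDKN2B H3K4me3 was 3.2, 10.6, 9.17 and 8.4 RPM. Both were lowest in EZH2+/+ and highest in EZH2-/+. Their RNA followed another order, with means of 0.759 and 0.177 RPM in EZH2-/+. CDKN2A RNA was 0.444, 0.456 and 0.328 RPM in EZH2+/+ and 10.0, 14.1 and 15.0 RPM in EZH2-/-, a rise of 4.68 (adjusted p = 5.1e-06, limma). CDKN2B RNA rose by 4.95 (adjusted p = 8.3e-05, limma). H3K27ac was 2.69 and 1.68 higher in EZH2-/-, beside a median of 0.54 over all kept gene names. The H3K4me3 differences were 0.55 at CDKN2A and 1.49 at CDKN2B, beside a median of 0.15. The H3K27ac difference was the larger at CDKN2A. At CDKN2B the marks lay closer together, and the counting half-width of the H3K4me3 difference was 0.64.

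Genes of the machinery for both marks are given next, beside a median H3K4me3 difference of 0.15 and the 10.5% and 20.8% of RNA calls over all kept gene names. The 19 kept genes of H3K4 methyltransferase complexes had a median H3K4me3 difference of 0.32, and RNA of 1 fell (5.26%) and of none rose by limma. The 7 H3K4 demethylase genes had a median of 0.12, and RNA of 4 fell (57.1%). The 12 kept PRC2 genes had a median of 0.26, and RNA of 5 (41.7%), EZH2 included, fell. PAXIP1, a subunit of MLL complexes, and SUZ12, a core PRC2 subunit, were at least 1 higher than EZH2+/+, yet their differences from EZH2-/+ were -0.07 and -0.04. RNA of PAXIP1 and SUZ12 did not pass (adjusted p = 0.48 and 0.68, limma).

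In the remaining lists single members passed the threshold. COL5A2, a fibrillar collagen, had 3.4, 5.35, 8.74 and 7.48 RPM of H3K4me3, and its RNA rose by 2.81 (adjusted p = 0.0029, limma). GABRP, a GABA receptor subunit and amnion marker, had 4.15, 11.2, 14.8 and 12.2 RPM, and its RNA rose by 1.34 (adjusted p = 0.0042, limma). CENPE, a kinetochore motor protein, had 4.69, 11.4, 9.73 and 8.95 RPM, with RNA 1.01 lower (adjusted p = 0.18, limma, and 0.00069 when blocked on library number). The mitosis genes had a median H3K4me3 difference of 0.17, near that of all kept gene names, although RNA of 14 of 25 fell (56%), beside 20.8% of all kept gene names, and of none rose by limma. The 28 housekeeping genes had a median of 0.26 with none past 1. GAPDH, a glycolytic enzyme, had 23, 30.8, 24.8 and 22.2 RPM. No kept member passed 1 among the germline, protocadherin, imprinted, demethylase, PRC1, skin and keratin, or olfactory receptor genes, of which 7 of 25 germline, 9 of 53 protocadherin, 3 of 20 skin and keratin and 2 of 38 olfactory receptor genes were kept.

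H3K4me3 was lower in EZH2-/- where EZH2+/+ cells had most H3K27me3. Kept gene names were ordered by H3K27me3 in EZH2+/+ and divided into deciles. The median H3K4me3 difference was 0.24 in the lowest decile, 0.03 in the ninth and -0.20 in the highest, which spanned 16.1 to 85.0 RPM of H3K27me3. The highest decile held 98 of the 209 lower and 13 of the 557 higher gene names. Against EZH2-/-+EZH2 the medians of the lowest and highest deciles were 0.15 and -0.29, and against EZH2-/+ they were -0.27 and -0.76, so the same order was found with each reference. The median input difference was 0.01 and 0.02. EZH2-/- had the lowest H3K4me3 of the 4 genotypes at 1201 of the 1851 gene names of the highest decile and at 111 of the lowest. RNA was nevertheless called higher at 27.5% and lower at 13.9% of the 1231 tested in the highest decile, and higher at 4.39% and lower at 20.5% in the lowest.

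RNA was tested with limma over 20608 genes in all 12 libraries, and 2593 (12.6%) were higher and 3870 (18.8%) lower in EZH2-/- than in EZH2+/+. Blocked on library number, 3566 (17.3%) were higher and 5773 (28.0%) lower. After rescaling by the median ratio, which moved the median of all genes from -0.13 to -0.02, 3302 (16%) were higher and 2907 (14.1%) lower. The total of 6463 calls was 4139 without EZH2-/- library 2 and 4282 without EZH2+/+ library 2. Of the kept gene names, 16026 were tested, and 1685 (10.5%) were higher and 3339 (20.8%) lower.

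Where RNA was tested, it followed H3K4me3 at the extremes, but most RNA changes came with little difference in H3K4me3. Of 16 gene names with H3K4me3 at least 2 higher, 14 were tested and RNA rose at all 14. Of 13 at least 2 lower, only 6 were tested, and RNA fell at all 6. The others averaged under 0.1 RPM of RNA. The filters on both measures could admit a gene through the genotype where it was high, which favours such counts. These counts are of gene names and not of separate loci. The windows of RAB17 and AC104667.3, both among the higher, overlapped, and RNA was counted without strand. Of the lower, NCAM2 and CHODL lay in the stretch of chromosome 21 with lower summed input. Input differences were -0.70 at KHDRBS2 and -0.59 at CHODL, which were also among the lower. At a difference of 1 to 1.5, RNA rose at 93 and fell at 55 of 409. For all 557 higher gene names these counts were 125 and 60 of 476 tested, with a median of 0.10. H3K27ac at the higher gene names had a median difference of 0.59, close to the 0.54 of all kept gene names. Conversely, the 1685 gene names with higher RNA had a median H3K4me3 difference of 0.29, and 65.6% of them lay within 0.5 of zero, as did 78.5% of the 3339 with lower RNA. Only 125 of the gene names with higher RNA (7.42%) were at least 1 higher in H3K4me3, beside 3.01% of all kept gene names. Of those with lower RNA, 60 (1.8%) were. Of those with higher RNA, the 780 H3K27me3 promoters had a median of 0.19 and the other 905 a median of 0.37. The 15 gene names with RNA at least 4 lower had a median of -0.98, and 7 of them were at least 1 lower in H3K4me3. Across the 16026 gene names, which are not independent replicates and share the same libraries, Spearman's rho between both differences was 0.17 and Pearson's r was 0.21.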

How the data were processed

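Native ChIP for H3K4me3 and input in EZH2+/+ and EZH2-/- H9 cells, with the same columns of EZH2-/+ and EZH2-/-+EZH2 cells, and 12 RNA libraries were analysed. The deposited values are log2 RPM (reads scaled to the library total), made by the authors with Trim Galore 0.4.0, alignment to GRCh38 with Bowtie2 2.2.5 (ChIP) or TopHat2 2.0.12 (RNA), and SeqMonk counting of non-duplicated ChIP reads, extended, over start-site windows, or of RNA reads per Ensembl release 70 gene without strand. Antisense and overlapping genes can therefore not be told apart, and windows of 9242 of 18507 kept gene names (49.9%) overlapped another. Each deposited ChIP column holds 1 value per window. The labels name 2 libraries for it, whereas the paper describes an average of 3 biological replicates, and counting error was computed for 2.

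Values were returned to the linear scale, with the repeated minimum of each ChIP and RNA column read as 0. Depth was read from that minimum: 3.43 to 17.4 M reads for H3K4me3, 17.8 to 23.8 M for input and 25.0 to 56.8 M for RNA. A pseudocount of 0.1 RPM was added. ChIP differences have no replicates and no p-value. RNA was tested with limma 3.58.1 (R 4.3.3, lmFit and eBayes with trend, all 12 libraries, 4 groups), two-sided, with Benjamini-Hochberg adjustment over the 20608 genes whose mean reached 0.1 RPM. The paper describes the 3 RNA libraries per line as biological replicates. Whether they came from separate cultures is not stated, so p-values measure the spread between these libraries. Deviations of same-numbered RNA libraries from their group means correlated at 0.127 to 0.691 in all 18 pairs, so the library number was also fitted as a block. The fit was tested on simulated data. RNA fits of genes listed at 0 depend on the pseudocount and are no bound. Kept gene names were 1 window per name, matched to RNA by name.

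The gene lists (20), the threshold and the comparison were chosen with earlier results of these data known. The text names the 10 loci with the largest rise and fall (input difference under 0.5, RNA tested, overlapping windows counted once), list genes past 1 and the study's ChIP examples. Promoter sequences are from RefSeq, matched by symbol and chromosome inside the window. No sequence of chromosome 8 is shown, and 1 gene that met the naming rule is not reported here. Gene types are from GENCODE release 44, where RP11-401P9.4 had no match. Alternatives changed the pseudocounts, filters, centring, reference genotype, window, input correction, RNA scaling, block and libraries. Chosen after seeing the data were EZH2-/-+EZH2 as reference, quantile normalisation, a running median over 501 gene names and leaving out chromosomes 17 and 21.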

Additional observations from a re-analysis of the deposited data

How the results depend on the processing

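The EZH2+/+ H3K4me3 column is shallow and compressed, and there are no ChIP replicates, so the counts of higher and lower gene names and the sign of small differences depend on the reference and scaling. The main values were a median of 0.17 over all windows kept, 557 higher and 209 lower gene names, with higher RNA at 125 and lower RNA at 52 of these, a median of -0.03 at H3K27me3 promoters, H3K27ac medians of 0.59 and 0.14, and RNA medians of 0.10 and -1.01. The cause of each shift was not tested. With a pseudocount of 1 RPM the counts were 355, 121 and 34 (lower RNA), the median of all windows 0.15, the H3K27ac median of the lower set 0.00 and the RNA median of the higher set 0.24. Without a filter on low values the median of all windows was -0.14, 3996 were lower, 161 of them with lower RNA, and the lower set had an H3K27ac median of -0.13 and an RNA median of -0.28. At a mean of at least 8 RPM the counts were 207, 71, 48 and 21. Centred on the median of all windows kept (then 0.00), they were 311 and 370, with lower RNA at 82, a median of -0.19 at H3K27me3 promoters and an RNA median of 0.29 in the higher set. With EZH2-/+ as reference the median of all windows was -0.34 and that of H3K27me3 promoters -0.55, the counts were 85, 574, 43 and 135, the H3K27ac medians 0.52 and 0.32, and the RNA medians 1.61 and -0.61. With EZH2-/-+EZH2 as reference these were 0.10, -0.08, 12, 50, 6 and 10, 0.49 and -0.03, and 2.39 for RNA of the higher set. Subtracting the input difference gave 873 and 319, an H3K27ac median of 0.30 and an RNA median of -0.61 in the lower set. The first-listed window gave -0.05 at H3K27me3 promoters. Quantile normalisation gave 0.00 over all windows, and both it and the running median gave -0.17 at H3K27me3 promoters and an RNA median of 0.24 in the higher set. The running median gave 317 lower gene names. Without chromosomes 17 and 21 the median was 0.18.

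For RNA in the lower set, a pseudocount of 1 RPM gave -0.54, no filter -0.13, and a mean of at least 1 RPM left 33 genes with lower RNA. Leaving out 1 library gave 4139 to 5501 calls, 1796 to 2294 higher and 2343 to 3374 lower. In these fits the RNA medians were 0.08 to 0.14 and -1.16 to -0.92, and the counts 104 to 112 and 41 to 50. The library number as a block, which pairs the libraries, gave 9339 calls (3566 higher, 5773 lower), higher RNA at 152 of the higher and lower RNA at 60 of the lower gene names, and medians of 0.10 and -1.01. Beyond the calls given with it above, it changed those of C1orf106, COL1A1, DDX59, DNMT3B, FOXA2, GAPDH, KIF14, KIF23 and SALL4 among the genes tested for this, all from not passed to passed.

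Of 472 H3K4me3 values of 47 named genes past 1, 394 moved by less than counting error. Changed filters and left-out chromosomes could not move a gene's own value, and centring moved all genes by the same amount. The 394 therefore include values fixed in advance and do not measure stability. Of the 472, 9 reversed. With EZH2-/+ as reference these were CDKN2B (-0.21), CENPE (-0.22), FGF2 (-0.07), LEFTY1 (-0.37), MIXL1 (-0.30), PAXIP1 (-0.07) and SUZ12 (-0.04). LEFTY1 (-0.04) reversed against EZH2-/-+EZH2, and HOXD3 (1.08) with the first-listed window. Of 1360 RNA values of 115 genes, 58 lost and 20 gained a call. No test was made of ChIP counts, and depth limits calls near 4 RPM, where counting error alone spans 0.62.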

Other observations

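A stretch of chromosome 21 held several of the losses. Among all runs of 11 consecutive kept gene names, the lowest median H3K4me3 difference, -1.15, was found from AL078471.5 to NCAM2 (chr21:10480238-21000815), and it was chosen after its values were seen. Of the 11, 6 were at least 1 lower and none at least 1 higher in H3K4me3, beside 1.13% and 3.01% of all kept gene names. RNA fell at 9 of 9 tested, with a median of -2.80, beside 20.8% and a median of -0.16 over all kept gene names. H3K27ac had a median difference of -1.02, while H3K27me3 had a median of 0.35. The medians of H3K4me3 were 9.77, 13.2, 4.88 and 3.53 RPM, in the order EZH2+/+, EZH2-/+, EZH2-/-, EZH2-/-+EZH2, so both lines derived from the EZH2-/- clone were low. USP25, a deubiquitinating enzyme of this stretch named after its values were seen, had 9.77, 13.2, 3.66 and 2.82 RPM of H3K4me3 in this order. Its RNA fell by 3.39 (SE 0.56, adjusted p = 0.00088, limma), from 20.4 to 29.0 RPM in EZH2+/+ to 0.623 to 4.78 RPM in EZH2-/-. The summed input of the 136 windows was 234.1, 234.3, 192.4 and 188.0 RPM, a difference of -0.28 between EZH2-/- and EZH2+/+, beside -0.01 over all windows. Clone and genotype cannot be told apart here, and the part of the lower input in these values was not tested.

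The highest run lay on chromosome 1, from NEK7 to RP11-168O16.1 (chr1:198154621-201026449), with a median H3K4me3 difference of 0.96. Its medians were 6.07, 17.6, 13.2 and 15.6 RPM in EZH2+/+, EZH2-/+, EZH2-/- and EZH2-/-+EZH2. RNA rose at 1 of 10 tested and fell at none by limma, beside 10.5% and 20.8% of all kept gene names. Blocked on library number, KIF14 and DDX59 of this run were also lower (adjusted p = 0.0026 and 0.034, limma) and C1orf106 higher (adjusted p = 0.027, limma). Its input difference was 0.00. On 17q beyond 60 Mb the summed input differed by -0.21 over 3073 windows and the median H3K4me3 difference of 333 kept gene names was -0.14.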
